A study of Homo sapiens with 8 samples.

Results

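The genes described here are 8 members of the PARP family (PARP1, PARP2, PARP4, PARP8, PARP9, PARP10, PARP12 and PARP14) and DTX3L, the ubiquitin ligase that pairs with PARP9. They were chosen by gene symbol with earlier results of these data known, so counts of members called describe this set and do not test it. PARP1 and PARP2 are included as relatives that work in DNA repair. The set makes up 9 of the 60664 genes in the count table. RNA was sequenced from A549 cells, an established human lung adenocarcinoma line, in 8 libraries, 2 for each of 4 groups. The untreated group received neither agent. The IFN-γ group received interferon-γ at 20 ng, for which the labels give no volume. The AX-0085 group received only AX-0085, a kinase inhibitor, to 0.5 µM, and the last group received both. The labels give a single schedule, in which AX-0085 was added 24 h after IFN-γ and the cells were harvested another 24 h later, so that AX-0085 met cells already exposed to IFN-γ. Cells given both had thus seen IFN-γ for longer than AX-0085.

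PARP proteins use NAD+ to attach ADP-ribose to other molecules, usually proteins. PARP1 and PARP2 sense DNA strand breaks and build chains of ADP-ribose that gather repair factors. Most of the other members described here attach single units of ADP-ribose or have little known activity of their own, and PARP9 and PARP14 carry macrodomains, which bind ADP-ribose. PARP9 forms a complex with DTX3L, and PARP9, PARP10, PARP12, PARP14 and DTX3L are known as genes that interferons raise. IFN-γ signals through the kinases JAK1 and JAK2. Short DNA motifs known from interferon-responsive promoters are the GAS site and the interferon-stimulated response element (ISRE).

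PARP9 and DTX3L lie head to head on chromosome 3, and their start region is shown because annotated starts of both genes lie close together. Use of these starts was not measured. In RefSeq (GRCh38.p14), the inner of 2 PARP9 starts was at position 122564300 on the minus strand and the DTX3L start was 38 bases away, at 122564338 on the plus strand. An ISRE match is written below in capitals within 30 bases of chr3:122564322-122564351, read on the minus strand, that of PARP9. Along the plus strand the match began 6 bases before the DTX3L start and ended 3 bases after it. The match is to the plus strand, that of DTX3L, where it reads as GAAA, any 2 bases and GAAA again.
PARP9 and DTX3L, shared start: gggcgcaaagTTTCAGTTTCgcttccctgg

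The upstream sequences of PARP14 and PARP12, the other members with an ISRE match, are shown in full so that the spacing can be seen. Each line below holds the 250 bases before the start on the gene's own strand, chr3:122680589-122680838 (plus) for PARP14 and chr7:140062952-140063201 (minus) for PARP12. Capitals mark a GAS match (TTCNNNGAA, where N is any base) followed by an ISRE match in PARP14, and an ISRE match on the opposite strand in PARP12.
PARP14: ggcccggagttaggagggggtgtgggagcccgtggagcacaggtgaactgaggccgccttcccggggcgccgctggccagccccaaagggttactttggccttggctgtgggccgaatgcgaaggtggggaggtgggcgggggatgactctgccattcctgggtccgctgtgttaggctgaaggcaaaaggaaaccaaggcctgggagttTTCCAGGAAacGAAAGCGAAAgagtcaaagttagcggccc
PARP12: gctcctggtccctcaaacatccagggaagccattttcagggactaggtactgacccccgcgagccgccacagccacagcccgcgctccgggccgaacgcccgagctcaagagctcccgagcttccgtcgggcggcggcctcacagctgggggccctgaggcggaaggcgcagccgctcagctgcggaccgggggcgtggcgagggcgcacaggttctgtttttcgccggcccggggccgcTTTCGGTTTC

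In PARP14 the GAS match lay 40 to 32 bases and the ISRE match 29 to 20 bases before the start, with 2 bases between them and no overlap. The PARP14 GAS match also had the narrower form TTCCNGGAA, which by its letters is always a match to TTCNNNGAA as well. The ISRE match of PARP12 lay 10 to 1 bases before the start. Among 34943 RefSeq windows of this length, searched on both strands, 3.02% held an ISRE match, 6.56% a GAS match and 0.967% the narrower GAS form. RefSeq entries were matched for 7 of the 9 genes, with 10 windows, of which 3 held an ISRE match and 2 a GAS match. The other GAS match was in PARP2, the repair relative, at chr14:20343481-20343489, 154 to 146 bases before its start, and it is shown with its flanks because PARP2 did not move with the interferon-responsive members.
PARP2: ttatggtgatTTCCCAGAAcacatagcga

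These letters were not in the windows searched for PARP1, PARP8, the outer PARP9 start or the 250 bases before the DTX3L start. PARP4 and PARP10 had no entry in the table used. A match is a string of letters, and binding was not measured here.

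Total counts per library were 20672828 to 29978251, and 3 counts corresponded to 0.100 to 0.145 CPM (counts relative to library size, scaled by TMM factors of 0.916 to 1.04). Epithelial markers had summed levels of 8779 to 9506 CPM untreated, 6502 to 7388 with IFN-γ, 5713 to 6043 under AX-0085 and 7196 to 7281 under both. The T cell markers CD2, CD3D and CD3E had no count. Of 4 markers of alveolar type 2 cells, which A549 is taken to model, NAPSA and SFTPA1 were listed at 0, and the summed level was 0.0331 to 0.122 CPM untreated, 0.0402 to 0.0528 with IFN-γ, 0.452 to 0.478 under AX-0085 and 0.320 to 0.495 under both. Mitochondrial genes took 1.71% to 1.82% of counts in the IFN-γ libraries, 2.72% to 3.55% in the untreated libraries, 4.12% to 5.73% in those of AX-0085 and 2.87% to 3.43% in those of both. All 3 fibroblast markers had counts, with a summed level of 2.93 to 4.44 CPM with IFN-γ, 9.40 to 10.9 CPM without treatment, 9.28 to 9.75 CPM under AX-0085 and 6.84 to 8.41 CPM under both. Whether these shifts bear on the changes below was not tested. The 2 libraries of each group differed by more than sampling noise, and the labels do not say whether they came from separate cultures, so the p-values measure the spread between these libraries.

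IFN-γ raised PARP9, DTX3L, PARP14, PARP12 and PARP10, by 4.93-fold to 15.5-fold, lowered PARP1, and left PARP2 short of the 2-fold threshold. A gene was called changed where its Benjamini-Hochberg-adjusted p over the 15066 genes tested, from the edgeR quasi-likelihood test, was under 0.05 and its fold change over 2. Against untreated cells, 10.3% of all genes tested were called higher and 17.2% lower, beside 5 and 1 of 7 members. By the adjusted p alone, without a fold threshold, 32.1% of all genes were higher and 36.0% lower, beside 5 and 2 of these members. The median log2 fold change was 2.42 over the 7 members and -0.06 over all genes tested. PARP8 is left out of the counts and medians of members because it passed the filter on low counts only through its IFN-γ libraries, and it is described by its counts. PARP4, the vault particle member on chromosome 13, was listed at 0 in every library and could not be tested. It shares no exon bases with another gene in GENCODE 44, and 3957 of 19942 protein-coding genes in the table were at 0 throughout, among them IRF1, a gene that IFN-γ is known to raise, so the 0 of PARP4 is not read as lack of expression. In RNA from a whole culture, a change in RNA per cell and a change in the share of cells that express the gene cannot be told apart.

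**Figure D1:**
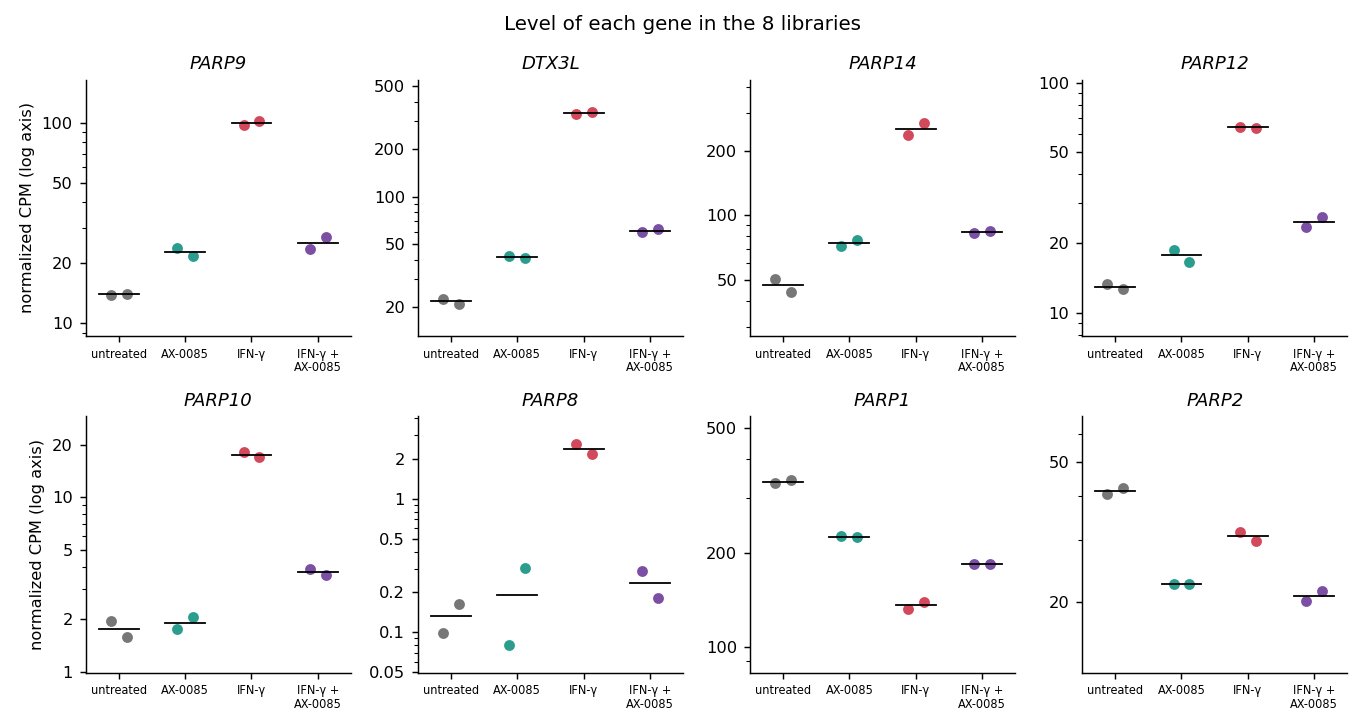
Normalized CPM (vertical log axes, each panel with its own range) of the 8 measured genes in the 4 groups; each point is 1 library and each line the mean of the 2 libraries of a group. The IFN-γ libraries lie above all others for PARP9, DTX3L, PARP14, PARP12, PARP10 and PARP8, and below all others for PARP1.

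PARP9, the macrodomain partner of DTX3L (ENSG00000138496, chr3:122527924-122564577, minus strand), was at 13.9 and 14.01 CPM in the untreated libraries and at 97.7 and 102 CPM with IFN-γ. DTX3L (ENSG00000163840, chr3:122564338-122575203, plus strand), which attaches ubiquitin to its targets, was at 22.5 and 21.1 CPM without treatment and at 333 and 345 CPM with IFN-γ. The groups lay far apart for both genes, and DTX3L had the smallest adjusted p of the members. Its log2 fold change was 3.96 (SE 0.07, edgeR adjusted p = 9.64e-14), a 15.5-fold rise. That of PARP9 was 2.84 (SE 0.09, adjusted p = 1.91e-11 by the same edgeR test), a 7.17-fold rise. The exons of the genes overlap by 139 bases, 1.56% of the PARP9 exon bases and 2.41% of those of DTX3L, and reads in those bases could be counted for either gene.

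PARP14 (ENSG00000173193, chr3:122680839-122730840, plus strand), a large macrodomain member known as a cofactor of STAT6, lies 116.5 kb beyond the DTX3L start. Its level was 50.6 and 43.7 CPM in untreated cells and 237 and 269 CPM with IFN-γ. The libraries of the groups did not overlap, with a log2 fold change of 2.42 (SE 0.08, edgeR adjusted p = 3.31e-11). PARP15, which lies between DTX3L and PARP14, had 1 count in all 8 libraries together, so the genes that rose on both sides of it flanked a gene with almost no counts.

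**Figure D2:**
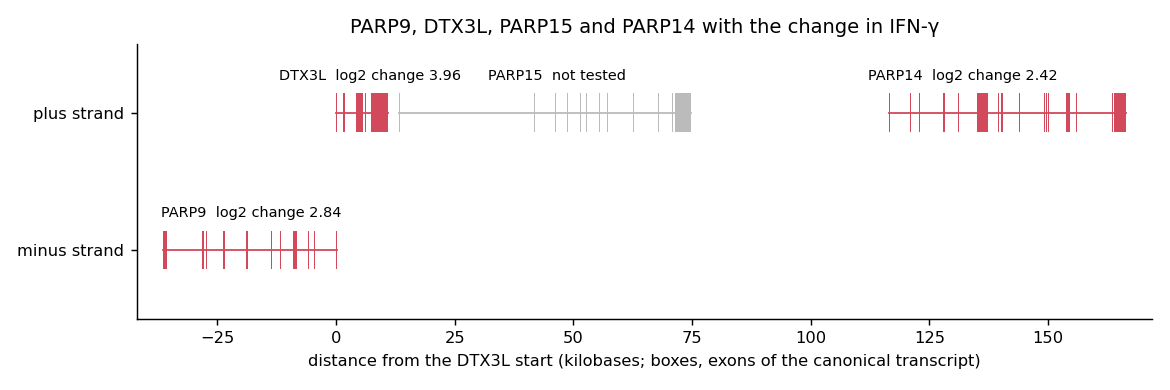
Map of PARP9, DTX3L, PARP15 and PARP14 along chromosome 3 as distance from the DTX3L start in kilobases, with boxes for exons of the canonical transcript and the strand on the vertical axis. The genes with log2 fold changes of 2.84 (PARP9), 3.96 (DTX3L) and 2.42 (PARP14) in IFN-γ against untreated cells are in red, and PARP15, which was not tested, is in grey between DTX3L and PARP14.

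PARP12 (ENSG00000059378, chr7:140023749-140062951, minus strand), a zinc finger member with antiviral activity, was at 13.3 and 12.7 CPM untreated and at 64.4 and 63.8 CPM with IFN-γ. Its log2 fold change was 2.30 (SE 0.09, edgeR adjusted p = 1.07e-10). PARP10 (ENSG00000178685, chr8:143977153-144012772, minus strand) attaches single units of ADP-ribose and started lower. It had 59 and 39 counts in untreated cells, or 1.95 and 1.59 CPM, and 343 and 420 counts with IFN-γ, or 18.1 and 16.9 CPM. The rise of PARP10 was 9.76-fold, with a log2 fold change of 3.29 (SE 0.14, adjusted p = 3.59e-10 by the same edgeR test), and 8.64% of its exon bases are shared with GRINA and SPATC1.

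PARP8 (ENSG00000151883, chr5:50665899-50846519, plus strand), a less studied member that attaches single ADP-ribose units, was close to the floor of detection outside the IFN-γ group. It had 3 and 4 counts untreated and 49 and 54 in the IFN-γ libraries. AX-0085 alone left 2 and 8 counts, and the libraries of both agents had 9 and 4. The ratio of the summed normalized counts, IFN-γ to untreated, was 18.4. The fitted log2 fold change was 4.16 (SE 0.44). PARP8 did not pass the filter in the 6 libraries outside the IFN-γ group, so a gene kept in this way had to be high with IFN-γ. No p is given for it, and its ratio and SE are not read as a test.

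The repair relatives moved the other way. PARP1 (ENSG00000143799, chr1:226360210-226408154, minus strand), the main source of ADP-ribose chains after DNA damage, was at 333 and 341 CPM in untreated cells and at 133 and 139 CPM with IFN-γ. This was a 2.48-fold fall with no overlap, at a log2 fold change of -1.31 (SE 0.05, edgeR adjusted p = 2.31e-10). PARP2 (ENSG00000129484, chr14:20343615-20357904, plus strand), which shares the break-sensing role, was at 40.6 and 42.1 CPM untreated and at 31.6 and 29.7 CPM with IFN-γ. Its log2 fold change of -0.43 (SE 0.08) passed the adjusted p alone (edgeR, Benjamini-Hochberg-adjusted p = 0.000197) and missed the fold threshold, and 2.39% of its exon bases are shared with antisense genes.

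Addition of AX-0085 to cells given IFN-γ addresses how far the inhibitor changes an established response. The 5 members called higher with IFN-γ all fell, by 2.59-fold to 5.54-fold, whereas neither PARP1 nor PARP2 passed the fold threshold. Against IFN-γ alone, 8.28% of all genes tested were called lower and 16.5% higher, beside 5 and 0 of the 7 members. By the adjusted p alone, 32.8% were lower and 33.7% higher, beside 6 members and 1. The median log2 fold change was -1.60 over these members and 0.03 over all genes tested. This comparison shares its IFN-γ libraries with the one before.

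In the complex, PARP9 was at 23.6 and 26.9 CPM and DTX3L at 60.1 and 62.2 CPM with both agents, against IFN-γ levels near 100 and 340 CPM. DTX3L fell 5.54-fold, a log2 fold change of -2.47 (SE 0.06, edgeR adjusted p = 2.62e-12), and PARP9 fell 3.97-fold, a log2 fold change of -1.99 (SE 0.08, adjusted p = 3.78e-10). PARP14 was at 82.9 and 84.9 CPM, with a log2 fold change of -1.60 (SE 0.08, adjusted p = 1.48e-09 by the same edgeR test). No library with both agents reached the lower of the IFN-γ libraries for any of these genes.

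PARP12 was at 23.5 and 26.1 CPM with both agents, a log2 fold change of -1.37 against IFN-γ (SE 0.08, edgeR adjusted p = 1.07e-08). PARP10 was at 3.90 and 3.60 CPM, a log2 fold change of -2.21 (SE 0.13, adjusted p = 6.88e-09 by the same edgeR test). PARP8 had the largest SE, with a fitted log2 fold change of -3.26 (SE 0.39), and its ratio of IFN-γ to both was 9.68. It was kept only through its IFN-γ libraries, so neither value is read as a test. PARP1 was higher with both agents than with IFN-γ alone, at 184 CPM in each library, by a log2 fold change of 0.43 (SE 0.05, edgeR adjusted p = 1.14e-05). PARP2 was lower again, at 20.1 and 21.5 CPM, by -0.56 on the log2 scale (SE 0.08, edgeR adjusted p = 3.27e-05), so the repair relatives moved in opposite directions here.

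As a share of the IFN-γ change on the log2 scale, AX-0085 removed 78.5% ± 14.7 (SD) of that of PARP8, 70.0% ± 4.76 for PARP9 and 67.3% ± 4.99 for PARP10. The PARP8 share rests on low counts and on a gene kept only through its IFN-γ libraries, so its place among the members is not read. The share was 65.9% ± 4.53 for PARP14, 62.4% ± 1.37 for DTX3L and 59.7% ± 4.72 for PARP12. It was 33.2% ± 2.74 for PARP1, below all of these. The SDs come from the spread of log2 CPM between the 2 libraries of each group, carried through the ratio. The median over all genes called higher with IFN-γ was 62.7%, close to the members that rose, PARP8 left out. That over all genes called lower was 78.1%, above the value of PARP1. The shares are given with no test because both changes rest on the same IFN-γ libraries.

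**Figure D3:**
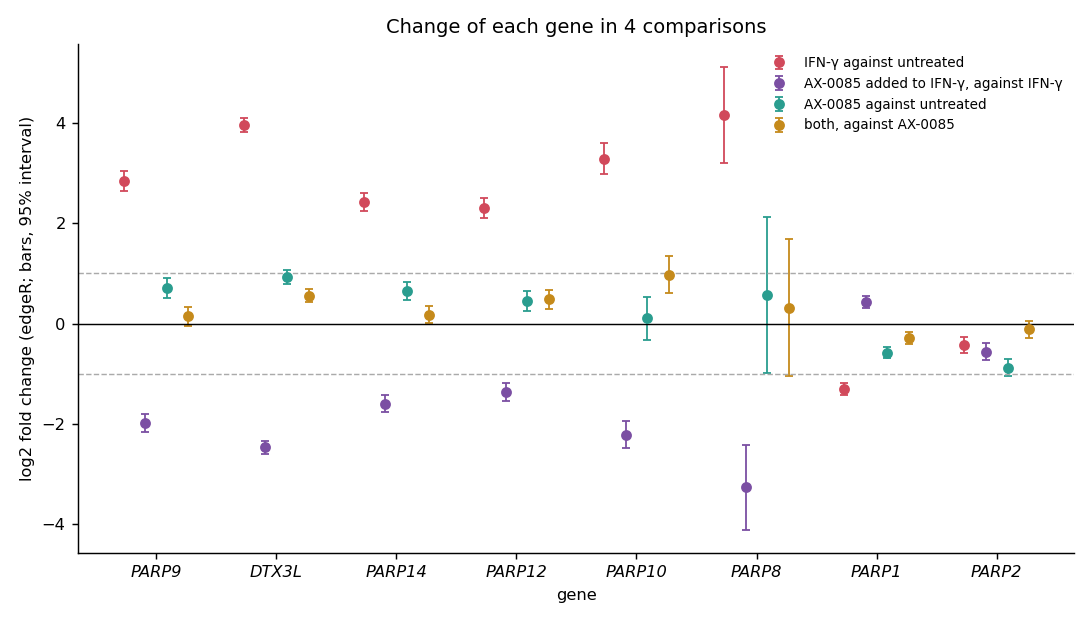
Log2 fold changes (vertical axis) of the 8 measured genes in 4 comparisons, with 95% intervals from edgeR as bars and the 2-fold threshold as dashed lines. The IFN-γ points and the points for AX-0085 added to IFN-γ lie beyond the threshold on opposite sides for PARP9, DTX3L, PARP14, PARP12, PARP10 and PARP8, and none of the points for AX-0085 alone lies beyond it. PARP8 was kept only through its IFN-γ libraries, so its bars are not read as a test.

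No interferon-responsive member was called lower with AX-0085 alone, and 4 of them stood higher with it than without treatment. None of the 7 members passed the full call, beside 6.41% of all genes tested called higher and 5.62% lower. By the edgeR adjusted p alone, 4 were higher (PARP9, PARP12, PARP14 and DTX3L) and 2 lower (PARP1 and PARP2), beside 26.7% and 26.6% of all genes tested. DTX3L was at 42.5 and 40.8 CPM with AX-0085, 1.91-fold its untreated level, a log2 fold change of 0.93 (SE 0.07, edgeR adjusted p = 1.11e-07). PARP9 was at 23.9 and 21.7 CPM, a log2 fold change of 0.71 (SE 0.09, adjusted p = 2.83e-05). PARP14 was at 71.9 and 76.4 CPM and PARP12 at 18.8 and 16.7 CPM, with log2 fold changes of 0.65 (adjusted p = 1.92e-05) and 0.45 (adjusted p = 0.00125 by the same edgeR test). In each of these 4 genes both AX-0085 libraries lay above both untreated libraries.

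PARP10 and PARP8 were not separated from untreated cells by AX-0085 alone. PARP10 was at 1.75 and 2.07 CPM, with a 95% interval of its log2 fold change from -0.32 to 0.52, and that of PARP8 ran from -0.98 to 2.13. Leaving out 1 library turned the sign of both, to -0.03 for PARP10 without untreated replicate 2, -0.02 for PARP10 without AX-0085 replicate 2 and -0.65 for PARP8 without AX-0085 replicate 2. PARP2 was at 22.4 CPM in both AX-0085 libraries, 1.84-fold below its untreated level (log2 fold change -0.88, SE 0.08, edgeR adjusted p = 7.57e-07). PARP1 was at 227 and 224 CPM, a log2 fold change of -0.58 (SE 0.05, adjusted p = 1.28e-06 by the same edgeR test). For PARP2 the change with AX-0085 was thus larger in size than the change of -0.43 with IFN-γ, and for PARP1 it was smaller than the change of -1.31. The 2 comparisons share the untreated libraries, and the difference between them was not tested.

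The effect of AX-0085 therefore had opposite signs with and without IFN-γ for PARP9, PARP12, PARP14 and DTX3L, and the interaction term of the edgeR model tests that difference. It called 5 of the 7 members lower and 1 higher, beside 6.46% and 12.1% of all genes tested, and by the adjusted p alone 5 lower and 2 higher, beside 23.6% and 26.7%. For DTX3L the AX-0085 effect was lower with IFN-γ than without it by an interaction of -3.40 on the log2 scale (SE 0.09, edgeR adjusted p = 9.74e-11). The interaction was -2.70 for PARP9, -2.31 for PARP10, -2.25 for PARP14 and -1.82 for PARP12, all called. For PARP8 the fitted interaction of -3.84 (SE 0.87) rests on 2 to 9 counts in each library outside the IFN-γ group and was -2.61 without AX-0085 replicate 2. PARP1 had an interaction of 1.02 (SE 0.08, edgeR adjusted p = 2.84e-07), at the edge of the fold threshold, and fell to 1.00 without untreated replicate 2 and to 0.97 without IFN-γ replicate 1, uncalled in both. For PARP2 the interaction was 0.32 (SE 0.11, edgeR adjusted p = 0.0274), under the fold threshold, and the p was 0.149 with DESeq2, 0.0565 with every gene of at least 1 count and 0.0252 to 0.141 with single libraries left out, over 0.05 for 6 of the 8.

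What was left in cells given both agents depended on the group they were set against. Against untreated cells, DTX3L and PARP10 were called higher, 2 of the 7 members beside 7.51% of all genes tested, and none was called lower, beside 7.23%. By the adjusted p alone 5 members were higher and 2 lower, beside 28.1% and 28.8% of all genes. DTX3L was 2.80-fold above untreated cells (log2 fold change 1.49, SE 0.06, edgeR adjusted p = 9.69e-10) and PARP10 2.11-fold (log2 fold change 1.07, SE 0.17, adjusted p = 0.000138). PARP9, PARP12 and PARP14 were 1.80-fold, 1.90-fold and 1.77-fold above untreated cells, higher by the adjusted p alone. PARP2 stood at the lower edge of the threshold, with a log2 fold change of -0.99 (SE 0.08, edgeR adjusted p = 1.96e-07), and PARP1 at -0.87 (SE 0.05, edgeR adjusted p = 2.27e-08). These calls near the threshold moved with single libraries, since PARP10 was at 0.95 without untreated replicate 2, PARP12 was called at 1.01 without untreated replicate 1 and at 1.04 without replicate 1 of both agents, and PARP2 was called at -1.04 without replicate 2 of both agents.

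Against AX-0085 alone, which asks what IFN-γ adds when the inhibitor is present, none of the 7 members was called in either direction, beside 1.79% of all genes tested called higher and 1.73% lower. By the adjusted p alone 3 were higher (PARP10, PARP12 and DTX3L) and PARP1 was lower, beside 17.3% and 17.4% of all genes. PARP10 came closest, at 1.96-fold, a log2 fold change of 0.97 (SE 0.17, edgeR adjusted p = 0.000826), and passed the call at 1.00 to 1.10 when any of 4 libraries was left out (untreated replicate 1, AX-0085 replicate 2, IFN-γ replicate 2 or replicate 2 of both). DTX3L and PARP12 were higher by the adjusted p alone, with log2 fold changes of 0.55 (SE 0.06, edgeR adjusted p = 2.40e-05) and 0.48 (SE 0.09, edgeR adjusted p = 0.00112). PARP9 was not separated from its AX-0085 level (95% interval -0.05 to 0.33 on the log2 scale, edgeR adjusted p = 0.228). For PARP14 the libraries did not overlap (71.9 and 76.4 against 82.9 and 84.9 CPM), with an interval of 0.01 to 0.35 and an edgeR adjusted p of 0.100. That p was 0.0106 in a fit of only these groups and 0.0298 to 0.361 with single libraries left out, so whether PARP14 differed here depended on the fit. The PARP9 libraries of both groups overlapped, at 23.9 and 21.7 CPM with AX-0085 and 23.6 and 26.9 CPM with both. For PARP8 the log2 fold change of 0.32 had an interval from -1.04 to 1.68 and changed sign, to -0.31 and -0.08, without AX-0085 replicate 1 and without replicate 1 of both agents.

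Within a library, the ratio of counts between partners does not depend on the scaling. There were 1.62 and 1.51 DTX3L counts per PARP9 count in untreated libraries and 3.41 and 3.38 in those given IFN-γ. AX-0085 alone gave 1.78 and 1.88, and the libraries of both agents 2.55 and 2.31. The groups did not overlap, and DTX3L gained on its partner most with IFN-γ. With 2 libraries a group the exact permutation test (two-sided) gave p = 0.333 for IFN-γ against untreated cells, the smallest it can give. The ratio of PARP14 to PARP9 went the other way, from 3.65 and 3.12 in untreated libraries to 2.43 and 2.64 with IFN-γ (exact permutation p = 0.333). PARP1 had 8.21 and 8.10 counts per PARP2 count without treatment and 4.19 and 4.69 after IFN-γ. It had 10.1 and 9.99 under AX-0085 and 9.14 and 8.57 under both agents, again without overlap between groups.

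**Figure D4:**
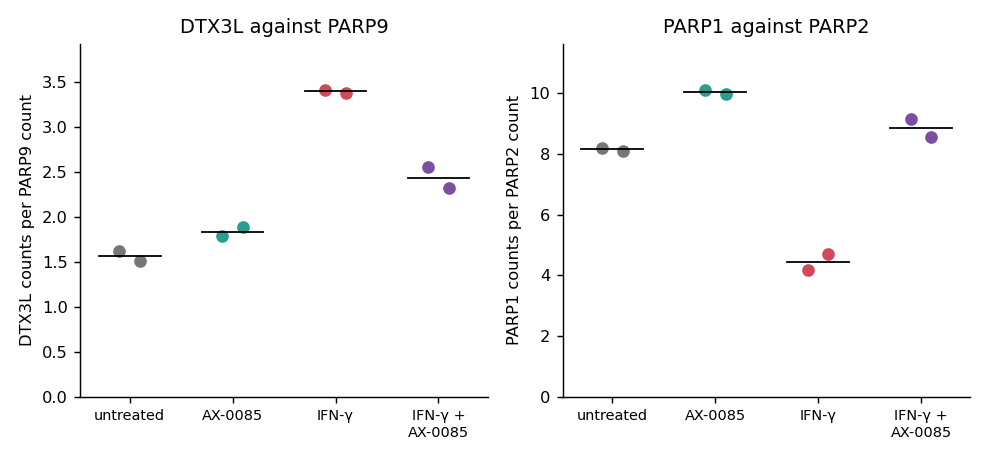
Counts of DTX3L per count of PARP9 (left) and of PARP1 per count of PARP2 (right) in each of the 8 libraries, with lines at the group means and vertical axes from 0. The IFN-γ libraries are highest on the left, at 3.41 and 3.38, and lowest on the right, at 4.19 and 4.69.

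Levels were compared between genes as CPM per kilobase of exon. In untreated cells the order was PARP1 (18.3 ± 0.287, SD, n = 2), PARP2 (10.2 ± 0.257), PARP14 (4.59 ± 0.471), DTX3L (3.78 ± 0.168), PARP12 (2.36 ± 0.0814), PARP9 (1.56 ± 0.0116), PARP10 (0.293 ± 0.0426) and PARP8 (0.0130 ± 0.00445), and no neighbours overlapped. With IFN-γ, DTX3L (58.7 ± 1.45) and PARP14 (24.7 ± 2.204) led, ahead of PARP12 (11.6 ± 0.0871) and PARP9 (11.2 ± 0.349). PARP2 (7.55 ± 0.336) and PARP1 (7.39 ± 0.269) overlapped, and PARP10 (2.90 ± 0.144) and PARP8 (0.236 ± 0.0292) remained last. With AX-0085 alone, PARP1 led and DTX3L and PARP14 overlapped, both at 7.22. With both agents DTX3L (10.6) lay just above PARP1 (9.99), an order that canonical lengths turn round.

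The order depends on the length used, since all annotated PARP1 exons cover 18399 bases and its canonical transcript 3978. With canonical transcript lengths, a choice made after seeing the data, 17 of the 32 places in the 4 orders were kept. DTX3L still led with IFN-γ at 58.7 CPM per kilobase, but PARP1 (34.2), PARP14 (32.9) and PARP9 (32.8) followed it with overlapping libraries. In cells given both agents PARP1 (46.2) led and DTX3L (10.6) was behind PARP2 (11.4) and PARP14 (10.9), with overlap between neighbours among those 3. In untreated cells PARP1 led under either length.

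The genes whose profile over the 8 libraries was most like a member's were named by the smallest root mean square difference of centred log2 CPM among the 10121 genes whose log2 CPM averaged 2 or more. For DTX3L these were SAMD9L and APOL6 (both 0.12 log2 units), IFIH1 (0.17), NMI (0.20) and IFI35 (0.22). IFIH1, a sensor of viral RNA, had log2 fold changes of 3.59 with IFN-γ and -2.06 after addition of AX-0085. For PARP9 they were KDM7A (0.11), LIMA1 (0.16), SLFN5 (0.19), MIR100HG (0.20) and TRIM69 (0.20). For PARP14 they were NMRAL2P (0.13), GEM (0.14), BMPER (0.16), NAMPT (0.16) and LIMA1 (0.17), and all exon bases of NMRAL2P overlap other genes. Among the members themselves, PARP14 was 0.15 log2 units from PARP12 and 0.19 from PARP9, closer than PARP9 was to its partner DTX3L (0.43). These distances come from 8 libraries in 4 groups and carry no test, and with Pearson's correlation as the measure 1, 2 and 0 of the 5 genes for PARP9, DTX3L and PARP14 were named again.

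The rest of the PARP family and the genes around ADP-ribose were read from lists, described by counts and medians alone. These counts stand beside 10.3% of all genes tested called higher and 17.2% lower with IFN-γ, and 16.5% higher and 8.28% lower after addition of AX-0085. Of 9 other PARP family genes, 8 were tested, and IFN-γ raised PARP6 (log2 fold change 1.79), PARP3 (1.27) and TIPARP (1.16), the last a member induced by the aryl hydrocarbon receptor. PARP11, PARP16, TNKS and TNKS2 were under the fold threshold, at 0.77, 0.40, 0.98 and 0.39, as was ZC3HAV1, an antiviral RNA-binding member without catalytic activity, at -0.12. The median of the list was 0.87, against -0.06 over all genes tested. After addition of AX-0085 none of the 8 was called against IFN-γ alone, but 4 were lower and 2 higher by the adjusted p alone. PARP6 had a log2 fold change of -0.93 (SE 0.07, edgeR adjusted p = 1.24e-07) and TIPARP one of -0.89 (SE 0.07, edgeR adjusted p = 1.27e-07), just under 2-fold, whereas PARP3 had a log2 fold change of -0.03 (SE 0.09, edgeR adjusted p = 0.827). PARP3, known for a role in strand break repair, was the list's called gene in cells given both against untreated cells, at 1.25. Of the 4 other deltex ligases, DTX1 (-1.78) and DTX4 (-1.51) fell with IFN-γ and rose again by 1.20 and 1.86 when AX-0085 was added, opposite to DTX3L. The DTX1 values rest on low counts, 23 and 29 untreated, 6 in each IFN-γ library, and 20 and 14 with both agents.

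Of 14 genes that remove or bind ADP-ribose, all tested, none was called higher and 1 lower with IFN-γ, NUDT9 (-1.07), and MACROD2, which cleaves ADP-ribose from proteins, rose after addition of AX-0085 (1.83). Of 16 NAD genes 12 were tested. NAMPT, the rate-limiting enzyme of NAD salvage, rose with IFN-γ by 2.196 on the log2 scale, from 340 and 325 CPM to 1442 and 1607 CPM, and fell by 1.44 once AX-0085 was present. QPRT, of the pathway that makes NAD from tryptophan, had 52 and 40 counts in untreated libraries, 2 in each library given IFN-γ and 99 and 80 in those given both agents, and was called lower and then higher. BST1, which cleaves NAD, fell with IFN-γ (-1.10), and NMRK1 (1.27) and NAPRT (1.07), both of NAD synthesis, rose when AX-0085 was added.

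Among 18 partners of PARP1 in strand break and base excision repair, 15 were tested, and 5 fell and none rose with IFN-γ, beside 17.2% and 10.3% of all genes tested, at a list median of -0.77. LIG1, the DNA ligase of replication, fell furthest, from 95.7 and 96.7 CPM to 12.4 and 10.2 CPM (log2 fold change -3.10, SE 0.09, edgeR adjusted p = 1.00e-11). PCNA, the replication clamp, (-1.41) and UNG, a uracil glycosylase (-1.19), fell as well, as did OGG1 (-1.02). When AX-0085 was added LIG1 (1.47) and NEIL1 (1.05) rose and TDG (-1.11) fell. Of 14 interferon reference genes tested, 10 rose with IFN-γ and 9 fell after addition of AX-0085, with medians of 2.50 and -1.93.

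**Figure D5:**
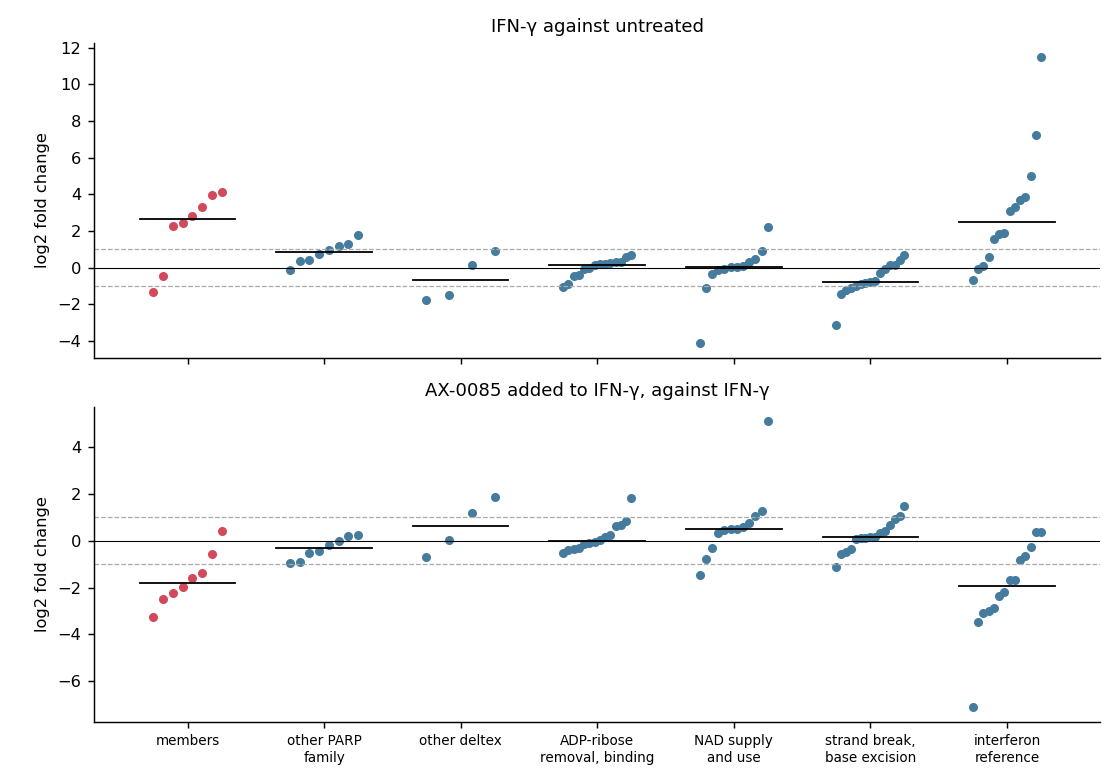
Log2 fold changes (vertical axes) of every tested gene in each list, with IFN-γ against untreated cells above and AX-0085 added to IFN-γ below; lines mark medians and dashed lines the 2-fold threshold. The members' medians, here with PARP8, are 2.63 above and -1.79 below, beside 2.50 and -1.93 for the interferon reference genes and -0.77 and 0.18 for the repair partners.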

How the data were processed

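The 8 libraries, from a stranded mRNA kit, were made from A549 cells in 4 groups of 2. Per the labels and the submitters' processing notes, the authors trimmed reads with Trim Galore 0.6.7, aligned them to GRCh38 with STAR 2.7.9a and counted them per gene with featureCounts. The values are the raw counts as the authors deposited them. The annotation release, the strand setting and the treatment of multimapping reads are not given in the sources used here, so antisense and overlapping genes may share reads. Symbols and positions were taken from GENCODE 44 (60463 identifiers matched) and promoter sequence from RefSeq.

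Of 26065 genes with at least 1 count, filterByExpr of edgeR 4.0.16 (R 4.3.3) kept 15066. They were scaled by TMM and tested with the edgeR quasi-likelihood test in 1 model of the 4 groups, and the script was tested on simulated data. Alternatives were RLE or no scaling factors, DESeq2 1.42.0, glmTreat, other filters, fits of the groups compared, the adjusted p alone, a replicate block and each library left out. Genes named outside the members are list genes called in either IFN-γ comparison (at most the 3 largest each way, with OGG1 added after its values were seen), all other PARP genes and the 5 nearest profiles. Members and lists were chosen with earlier results of these data known. A protein comparison was not done here, and some genes of the lists are counted but not reported here by name.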

Additional observations from a re-analysis of the deposited data

Results flagged for a closer look

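The AX-0085 effect differed with and without IFN-γ in the interaction term of the edgeR model, at an adjusted p under 0.05 for the 7 tested members other than PARP8. This did not hold under every alternative for PARP2, with an adjusted p of 0.149 in DESeq2 and 0.0565 with every gene of at least 1 count. No p is given for PARP8, and its difference was -2.61 without AX-0085 replicate 2. The difference on the log2 scale was -3.84 for PARP8, -3.40 for DTX3L, -2.70 for PARP9, -2.31 for PARP10, -2.25 for PARP14 and -1.82 for PARP12. It was 1.02 for PARP1 and 0.32 for PARP2, the repair relatives, in the opposite direction. By the same adjusted p, 23.6% of all genes tested had a lower and 26.7% a higher effect with IFN-γ. The PARP8 value rests on 2 and 8 counts in the AX-0085 libraries, and PARP8 passed the filter on low counts only through its IFN-γ libraries.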

How the results depend on the processing

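PARP8 is included in the counts that follow. Of 799 alternative values of the members' log2 fold changes, 759 kept their direction and call, 27 gained the call, 8 lost it and 5 reversed. The reversals were all from leaving out 1 library: -0.03 and -0.02 for PARP10 (range -0.03 to 0.28) and -0.65 for PARP8 (-0.65 to 1.20) in AX-0085 against untreated cells, and -0.31 and -0.08 for PARP8 (-0.31 to 1.55) in both against AX-0085. With the adjusted p alone, 2 members were called lower with IFN-γ and 1 higher in both against IFN-γ, beside 36.0% and 33.7% of all genes. AX-0085 alone had 4 higher and 2 lower, beside 26.7% and 26.6%. In both against AX-0085, 3 were higher and 1 lower, beside 17.3% and 17.4%. In both against untreated cells, 5 were higher and 2 lower, beside 28.1% and 28.8%. In the interaction 2 were higher, beside 26.7%. No member was called higher in the interaction (0, against 1 reported) with RLE factors, DESeq2 or glmTreat, where PARP1 was at 0.98, 0.98 and 1.02. With glmTreat 1 member was higher in both against untreated cells, and with every gene of at least 1 count 1 was lower (PARP2). Over the left-out libraries, members called ranged from 0 to 1 higher in both against AX-0085, 1 to 3 higher and 0 to 1 lower in both against untreated cells, and 0 to 1 higher in the interaction. The shares of all genes called in the reported fit were, in that order, 1.79%, 7.51%, 7.23% and 12.1%. With canonical transcript lengths 17 of 32 places in the level orders were kept.

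Scaling by library size alone shifted the median of all genes by -0.12 (log2) with IFN-γ and by 0.12 in both against IFN-γ, and changed no member's call. glmTreat called 0.119% to 9.84% of genes in a direction, and the adjusted p alone 17.3% to 36.0%. Libraries with the same replicate number in different groups showed no sign of pairing (correlations of deviations -0.07 to 0.04). With 2 libraries a group this cannot exclude pairing. The replicate block changed no member's call. PARP8 lay outside the filter on 10 counts in every library, so no value was computed for it there, and its low counts limit every statement on it.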
